A study of Homo sapiens with 12 samples.

Results

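The sensing of double-stranded RNA and the interferon signalling downstream of it were examined through 9 genes, namely IFIH1, DHX58, DDX60, MAVS, IRF3, STAT2, EIF2AK2, ADAR and DICER1. Peaks of ac4C (N4-acetylcytidine, cytidine with an acetyl group on its base) were counted for a gene where they overlapped its annotated span by at least 1 bp on either strand. Of 28047 peaks in NAT10 knockdown cells 15 met this rule, and of 34365 peaks in control cells 17 did. The 9 genes are a small fraction of the 20050 protein-coding genes annotated.

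The cells were RBE, a human intrahepatic cholangiocarcinoma line. The knockdown cells had received a lentiviral hairpin directed at NAT10, the enzyme that acetylates cytidine in RNA, and had been selected with puromycin, and the control cells carried the hairpin labelled sh-NC. The labels do not give the hairpin sequences, whether more than 1 hairpin was used, or whether the expanded resistant colonies were kept as clones or pooled. Each arm had 3 replicates of an immunoprecipitate with an ac4C antibody and 3 of its input, 12 libraries in all, but a single peak list was deposited per arm. The values below therefore carry no spread between replicates, and no p-value is given. The RNA is labelled as polyA RNA, whereas the protocol starts from total RNA. More acetylation per transcript and more of the transcript cannot be told apart in such lists, and the read depth behind them is unknown.

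In human cells, double-stranded RNA in the cytoplasm is bound by the helicases MDA5 (encoded by IFIH1) and RIG-I, with LGP2 (DHX58) as a regulator. MDA5 and RIG-I signal through the mitochondrial adaptor MAVS to the transcription factor IRF3, which switches on type I interferon genes. Secreted interferon then acts through JAK kinases on transcription factors that include STAT2. A second arm works on the RNA itself or on translation. The kinase PKR (EIF2AK2) halts translation initiation when it binds double-stranded RNA, ADAR deaminates adenosines in such RNA and so keeps the sensors quiet, and DICER1 cuts it into small RNAs. Transcripts of transposable elements are one cellular source of double-stranded RNA, and the study's title names transposable element expression as what NAT10 is proposed to suppress.

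Peaks were found on 5 of the 9 genes in the knockdown list and on 7 in the control list. Among all protein-coding genes, 42.0% had a knockdown peak and 47.1% a control peak. MAVS, IRF3, EIF2AK2, ADAR and DICER1 had peaks in both lists, STAT2 and DDX60 in the control list only, and no gene of the 9 in the knockdown list only. IFIH1 and DHX58 had none in either list. More knockdown than control peaks were listed for MAVS, IRF3 and DICER1, which is 3 of the 7 genes with any peak, against 33.3% of such protein-coding genes. Fewer were listed for DDX60, STAT2, EIF2AK2 and ADAR, which is 4 of 7, against 46.1%. The median difference in peak number, knockdown minus control, was 0 over the 9 genes and 0 over protein-coding genes with any peak. The 9 genes thus showed no common direction. The shares with a peak, 5 of 9 and 7 of 9, were above those of all protein-coding genes. With peaks that overlap more than 1 gene left out, they were 4 of 9 and 6 of 9. The matching shares of all protein-coding genes were not computed. These member shares rest on only 9 genes, chosen with earlier results of these data known.

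**Figure D1:**
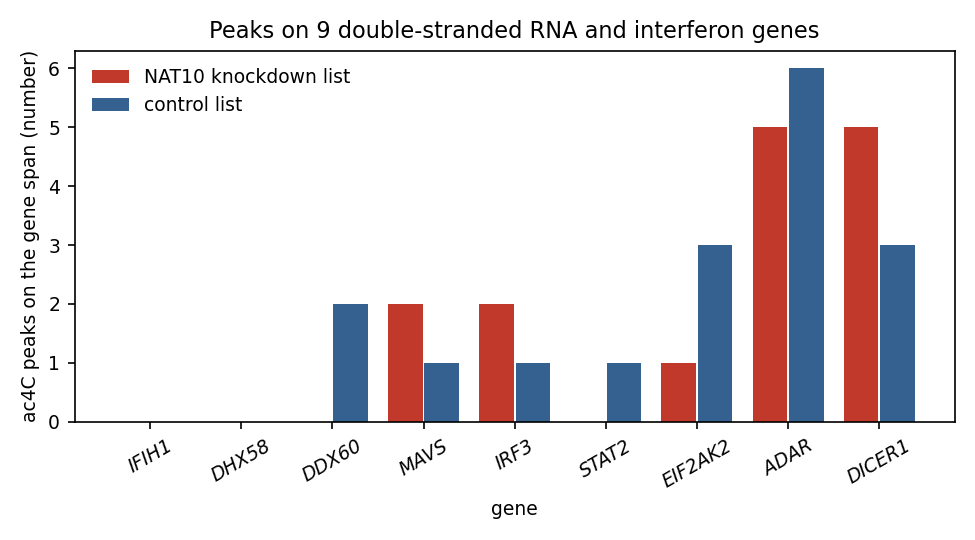
Number of ac4C peaks (vertical axis) overlapping the span of each of the 9 genes (horizontal axis), in the NAT10 knockdown list (red, left bars) and the control list (blue, right bars). ADAR has 5 and 6 peaks and DICER1 5 and 3, STAT2 and DDX60 have control peaks only, and IFIH1 and DHX58 have none.

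The authors deposited a score for every peak without stating its scale in any source at hand, and most values lie above an abrupt lower edge of 10. Scores were used only to describe peaks within a list, and they do not measure a change between lists. The 15 knockdown peaks had a median score of 12.3 (range 10.1 to 21.6), beside a median of 12.4 over the whole knockdown list. The 17 control peaks had a median of 12.9 (range 10.1 to 55.0), beside 12.2 over the whole control list. Scores of 15 or more were carried by 3 of the knockdown peaks, 1 each on MAVS, ADAR and DICER1, and by 4 of the control peaks, 1 each on MAVS, EIF2AK2, ADAR and DICER1.

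**Figure D2:**
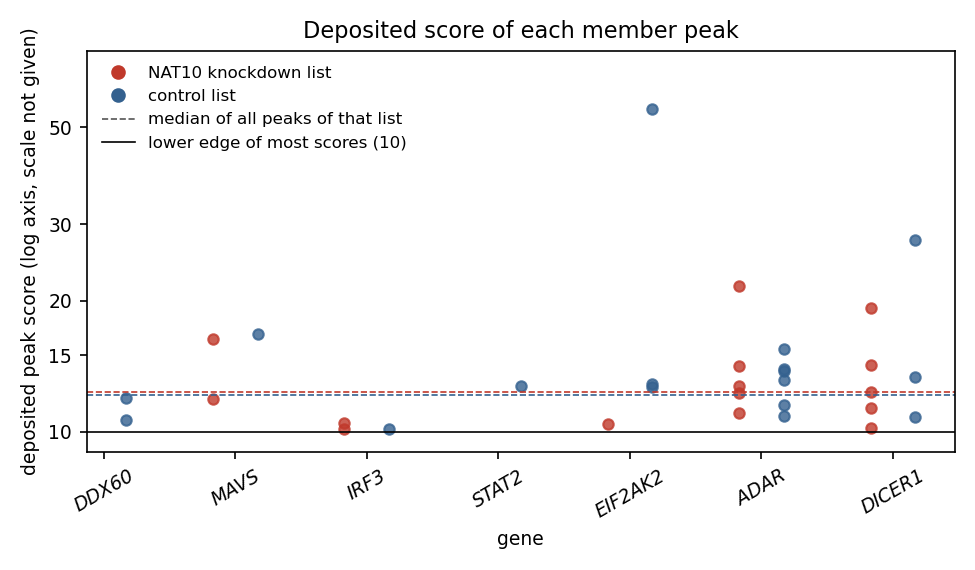
Deposited score of each peak (vertical log axis, scale not given) on the 7 genes with any peak (horizontal axis), with knockdown peaks in red on the left and control peaks in blue on the right. The dashed lines are the medians of all peaks of each list and the solid line marks the lower edge at 10. Most points lie between 10 and 15, and the highest is the control peak on EIF2AK2 at 55.0.

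Of the sensors, only DDX60 had a peak. IFIH1 (chromosome 2, 162267074 to 162318684, hg38) and DHX58 (chromosome 17, 42101411 to 42112714) had 0 peaks in both lists. Whether their transcripts were present cannot be read from the lists. DDX60 (chromosome 4, 168216294 to 168325979), a helicase reported to aid RIG-I-like receptors, had 0 knockdown peaks and 2 control peaks. The control peaks lay on the minus strand, which is the strand of the gene, at 168285495 to 168287068 (1574 bp, score 11.95) and at 168311003 to 168311265 (263 bp, score 10.65). Scores below these were held by 46.6% and 17.4% of all control peaks, so the second peak stood close to the lower edge. The nearest knockdown peak on the same strand was 172260 bp away from the first. Of the protein-coding genes with 2 control peaks, 25.5% had no knockdown peak. DDX60L, the related gene, had no peak in either list.

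MAVS, the adaptor, was covered over nearly the same stretch in both lists. On its plus strand (chromosome 20, gene span 3846834 to 3876118) the knockdown list had 2 peaks, from 3857646 to 3861417 (3772 bp, score 11.88) and from 3861493 to 3864358 (2866 bp, score 16.37). The control list had 1 peak from 3857721 to 3864258 (6538 bp, score 16.81). The knockdown peaks were 75 bp apart and together covered 6638 bp, of which 6463 bp lay inside the control peak. The difference of 1 peak is therefore 1 split of a common region, and with peaks merged within 100 bp both lists had 1 peak. The peaks are written as single blocks, so their widths can include introns.

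IRF3, the transcription factor that MAVS activates, had peaks only where its span overlaps a neighbouring gene. The knockdown list had 2 peaks there (chromosome 19, gene span 49659572 to 49665857), at 49665242 to 49665266 on the plus strand (score 10.46) and at 49665257 to 49665281 on the minus strand (score 10.13). The control list had the first of these with the same coordinates and strand (score 10.15). All were 25 bp wide and near the bottom of the score range. They also lay inside BCL2L12, a gene of the BCL2 family on the plus strand that starts at 49665142, and the plus strand peak began 100 bp after that start. The strand of IRF3 is not listed in the tables used here. With peaks of more than 1 gene left out, IRF3 had none in either list, and its assignment is uncertain.

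STAT2, which carries the type I interferon signal to the nucleus together with IRF9, had 0 knockdown peaks and 1 control peak. The control peak lay on the strand of the gene (chromosome 12, gene span 56341597 to 56360107), at 56343372 to 56343546, and was 175 bp wide with a score of 12.72, above 57.2% of control peaks. Its midpoint was at 89.9% of the span in the direction of transcription. The nearest knockdown peak on that strand was 56738 bp away. A gene with a single control peak often had no counterpart, since 43.1% of the protein-coding genes with 1 control peak had no knockdown peak. Over protein-coding genes with any number of control peaks the share was 26.3%, and over the members it was 2 of 7.

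EIF2AK2 had peaks in both lists, but at different places. On the minus strand, that of the gene (chromosome 2, 37099210 to 37156980), the knockdown list had 1 peak at 37102160 to 37102209 (50 bp, score 10.41). The control list had 1 at 37107310 to 37107487 (178 bp, score 12.66), 5100 bp from the knockdown peak, and 1 at 37147804 to 37148862 (1059 bp, score 55.01). It also had 1 on the opposite strand at 37148580 to 37148854 (275 bp, score 12.90). None of these 4 peaks overlapped a peak of the other list on the same strand. The control peak with a score of 55.01 was the highest of all 9 genes and above 98.4% of control peaks. It shared 491 bp with the pseudogene ARL14EPP1, which holds the opposite-strand peak in full, so that both are uncertain as EIF2AK2 peaks. With peaks that touch another gene left out, EIF2AK2 had 1 knockdown peak and 1 control peak.

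**Figure D3:**
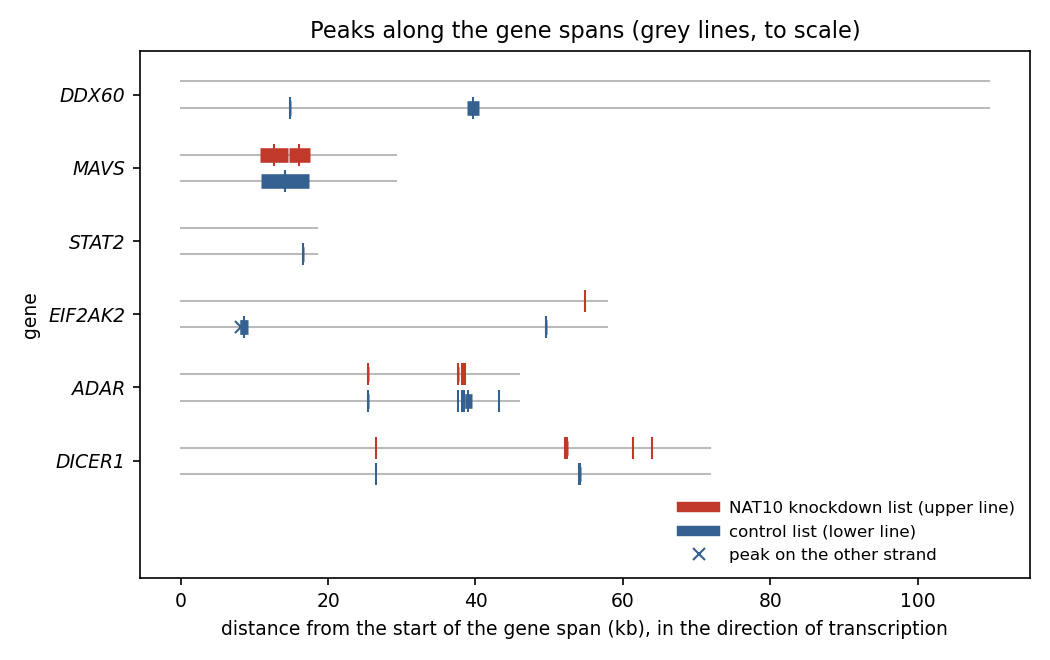
Position of each peak along the spans of the 6 genes with a peak and a listed strand (vertical axis), as distance from the start of the span in kb (horizontal axis). Knockdown peaks (red) stand on the upper line and control peaks (blue) on the lower line of each gene, and blocks are drawn to scale under a tick at their midpoint. The MAVS blocks and the ADAR groups line up between the lists, whereas the EIF2AK2 peaks do not.

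ADAR, the adenosine deaminase, had the most peaks of the 9 genes over both lists and the most that recurred, with 5 knockdown and 6 control peaks, all on its own strand (chromosome 1, 154582057 to 154627997, minus strand). Of these, 3 in both lists overlapped a peak of the other. The recurring peaks included 1 of 319 bp at 154589447 to 154589765 and 1 of 150 bp at 154589791 to 154589940, each with identical coordinates in both lists. The first scored 21.60 in the knockdown list and 13.14 in the control list, and the second 14.19 and 15.52. The third began at 154602503 in both lists, with 100 bp and a score of 12.27 in the knockdown list and 50 bp and 13.96 in the control list.

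Most of the ADAR peaks formed a group of 1839 bp from 154588527 to 154590365, with 4 peaks in both lists whose midpoints lay at 81.9% to 85.0% of the gene span. Within this group, peaks covered 544 bp in the knockdown list and 1339 bp in the control list, with 469 bp in common. The peaks of the group that did not overlap lay next to each other. The knockdown peak at 154590291 to 154590340 (score 12.74) directly abutted the control peak at 154590341 to 154590365 (score 10.90). The knockdown peak at 154589397 to 154589421 (25 bp, score 11.06) lay 25 bp from the control peak at 154588527 to 154589371 (845 bp, score 11.52). The remaining control peak, at 154584795 to 154584819 (25 bp, score 13.80), was 4577 bp from the nearest knockdown peak, and it was the only ADAR peak without a peak of the other list within 25 bp.

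**Figure D4:**
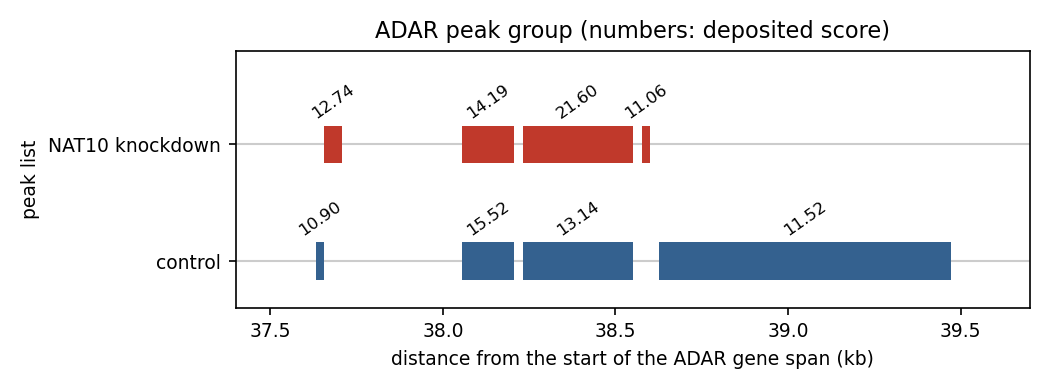
The ADAR peak group, with the knockdown list above (red) and the control list below (blue), as distance from the start of the gene span in kb (horizontal axis). Numbers are deposited scores. The blocks scoring 21.60 and 14.19 in the knockdown list have the same edges as those scoring 13.14 and 15.52 in the control list, and the widest difference is the control block of 845 bp.

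DICER1, the ribonuclease that cuts double-stranded RNA and microRNA precursors, had 5 knockdown and 3 control peaks, all on its own strand (chromosome 14, 95086228 to 95158010, minus strand). The peak with the highest score on this gene was the same one in both lists. It began at 95131495, was 100 bp wide with a score of 19.28 in the knockdown list, and was 75 bp wide with a score of 27.64 in the control list. Those scores were above 83.8% of knockdown peaks and 93.9% of control peaks.

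The other DICER1 peaks did not coincide. The knockdown list had a pair at 95105489 to 95105688 (score 10.21) and 95105714 to 95106045 (score 11.33), and the control list a pair at 95103745 to 95103894 (score 13.36) and 95103920 to 95103944 (score 10.80). Each pair was separated by 25 bp, and 1544 bp lay between the pairs. The knockdown list had 2 more peaks nearer the end of the gene, at 95096660 to 95096684 (25 bp, score 12.34) and at 95094046 to 95094095 (50 bp, score 14.26), which were 7060 and 9649 bp from the nearest control peak. The higher count of knockdown peaks on DICER1 consisted of peaks under a score of 15.

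Over the 9 genes, 7 of the 15 knockdown peaks had a counterpart on the same strand in the control list (46.7%, 95% Wilson interval 24.8 to 69.9), against 55.6% of all knockdown peaks. Of the 17 control peaks, 6 had one in the knockdown list (35.3%, 17.3 to 58.7), against 45.5% of all control peaks. The intervals cover counting error only and treat peaks of the same gene as independent, which they are not. Both intervals include the share over the whole list. For scores from 10 to under 15, 4 of 12 knockdown peaks recurred, against 49.1% of knockdown peaks in that range, and 3 of 13 control peaks recurred, against 39.5%. For scores of 15 or more, 3 of 3 knockdown peaks recurred, against 68.0% of such knockdown peaks, and 3 of 4 control peaks, against 59.4%, the exception being the EIF2AK2 peak over the pseudogene. With the other list also held to a score of 15 or more, 66.7% of the 3 and 50% of the 4 recurred. Identical coordinates were shared by 3 peaks, 2 on ADAR and 1 on IRF3. In the whole lists, 20.0% of knockdown and 16.3% of control peaks had identical coordinates in the other.

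The 13 knockdown and 14 control peaks of up to 1000 bp on these genes lay mostly near the end of the span. In the last 20% of the span were 8 of 13 knockdown peaks (61.5%, 95% Wilson interval 35.5 to 82.3) and 8 of 14 control peaks (57.1%, 32.6 to 78.6). Over protein-coding genes the shares were 38.3% of knockdown and 44.5% of control peaks, and each interval includes the share of its list. Without IRF3, whose direction was taken from the peak, the counts were 7 of 11 and 7 of 13. The ADAR group alone supplied 4 of the 8 knockdown and 4 of the 8 control peaks. Of the peaks on genes with a listed strand, 13 of 13 knockdown and 15 of 16 control peaks were on that strand, the exception being the peak inside ARL14EPP1, while over protein-coding genes 90.7% and 90.5% were. Widths that are whole multiples of 25 bp were found for 11 of the 13 and 10 of the 14 narrow peaks, and for 77.8% and 82.6% of narrow peaks in the whole lists.

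A further 75 genes of the pathway were described in the same way, and were sorted by role after their values had been seen. Of these, 35 had a knockdown peak (46.7%) and 42 a control peak (56.0%), with 31 in both lists, 4 in the knockdown list only, 11 in the control list only and 29 in neither. The control-only genes were 26.2% of those with a control peak, next to 26.3% of protein-coding genes. The knockdown-only genes were 11.4% of those with a knockdown peak, against 17.4% of protein-coding genes. Of the 46 with any peak, 20 had more knockdown than control peaks and 21 fewer, against 33.3% and 46.1% of protein-coding genes with any peak. The distinct peaks on these genes numbered 126 in the knockdown list and 113 in the control list. A peak scoring 15 or more within its own list was present on 29 genes in the knockdown list (38.7%, against 21.7% of protein-coding genes) and on 20 in the control list (26.7%, against 22.9%), 1 of the 20 through an infinite score. Since the scores of the lists may not share a scale, no change is read from these counts.

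Among genes that bind or process double-stranded RNA, 11 of 12 had a peak in either list, against 54.4% of protein-coding genes, and 8 had peaks in both, against 34.7%. DHX9, a helicase that unwinds such RNA, had 8 knockdown and 7 control peaks. STAU1, a double-stranded RNA binding protein, had 6 knockdown and 7 control peaks. TARBP2, a partner of DICER1, had 3 knockdown peaks with a highest score of 14.49 and 0 control peaks. ADARB1, the second active adenosine deaminase, had 0 knockdown peaks and 1 control peak of 4045 bp with a score of 18.42. DGCR8, the partner of DROSHA, had a control peak only, of 25 bp with a score of 3.51. That score lies under the abrupt lower edge of most scores, and the count of 11 of 12 includes this gene. PRKRA, an activator of PKR, had no peak. DGCR8 and PRKRA were singled out after their values were seen.

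Adaptors, kinases and NF-kB subunits had 35 knockdown and 23 control peaks, beside 28047 and 34365 in the whole lists. Of the 12 genes in this group with any peak, 8 had more knockdown than control peaks, against 33.3% of protein-coding genes, and 3 had fewer, against 46.1%. IKBKG, singled out after its values were seen, had 7 knockdown peaks and 1 control peak, and 3 of the 7 overlap another gene. Without it the group had 28 knockdown and 22 control peaks. TANK, also singled out after its values were seen, went the other way with 2 knockdown and 6 control peaks, all of which overlap another gene. NFKB1, a subunit of NF-kB, had 2 knockdown peaks with a highest score of 31.68 and 0 control peaks. CHUK, a catalytic subunit of the kinase that releases NF-kB, had 1 knockdown peak of 2082 bp with a score of 21.95 and 0 control peaks. In the group of interferons, receptors, JAK-STAT and IRF genes, 8 of 16 genes had a peak, against 54.4% of protein-coding genes. Of the 8, 7 had a peak that overlaps no other gene. The totals were 20 peaks in both lists. TYK2, a kinase bound to the interferon receptor, had 7 knockdown and 6 control peaks. IRF2, an antagonist of IRF1, and SOCS3, a feedback inhibitor of JAK signalling, had 0 knockdown peaks and 1 control peak each, with scores of 11.87 and 11.50. The 5 genes around eIF2alpha, the target of PKR, had 13 knockdown and 7 control peaks. They lay on 4 of the 5 genes, where 54.4% of protein-coding genes had a peak in either list. EIF2AK4 held 8 of the knockdown and 2 of the control peaks. EIF2AK1 had 3 and 2, PPP1R15A 2 and 1, and EIF2S1 0 and 2. Of these 4 genes, 3 had a peak that overlaps no other gene, whereas all EIF2S1 peaks overlap another gene. These genes were singled out after their values were seen.

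Of 18 effectors that interferon induces, 12 had no peak in either list, where 45.6% of protein-coding genes had none. Those without a peak included ISG15, IFIT1, IFIT2, MX1, MX2, IFI6 and IFI44. The interferon gene IFNB1 and the 3 DNA sensing genes also had none. UBA7, the activating enzyme for ISG15, had 3 knockdown peaks with a highest score of 12.47 and 0 control peaks. SAMHD1 had 1 knockdown peak with a score of 17.04 and 2 control peaks with a highest score of 12.40, none of which overlaps another gene. OAS1, OAS2 and OAS3, which make the activator of RNase L, shared 1 peak of 108745 bp in both lists, on the minus strand, opposite to the listed strand of OAS1 and OAS3. Without it, OAS2 and OAS3 had 0 knockdown peaks and 1 control peak each, with scores of 13.16 and 12.26, and OAS1 had none. IFIT3 had 0 knockdown peaks and 1 control peak, a block of 20701 bp with an infinite score that also overlaps LIPA and lies opposite to the listed strand of IFIT3. Among sensors and their regulators, TLR3, the endosomal receptor for double-stranded RNA, had 0 knockdown peaks and 2 control peaks with a highest score of 11.13. RIGI had 0 knockdown peaks and 1 control peak, a span of 49859 bp over RIGI and TOPORS with a score of 0. SAMHD1, the OAS genes, IFIT3, RIGI and the genes without peaks were singled out after their values were seen.

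**Figure D5:**
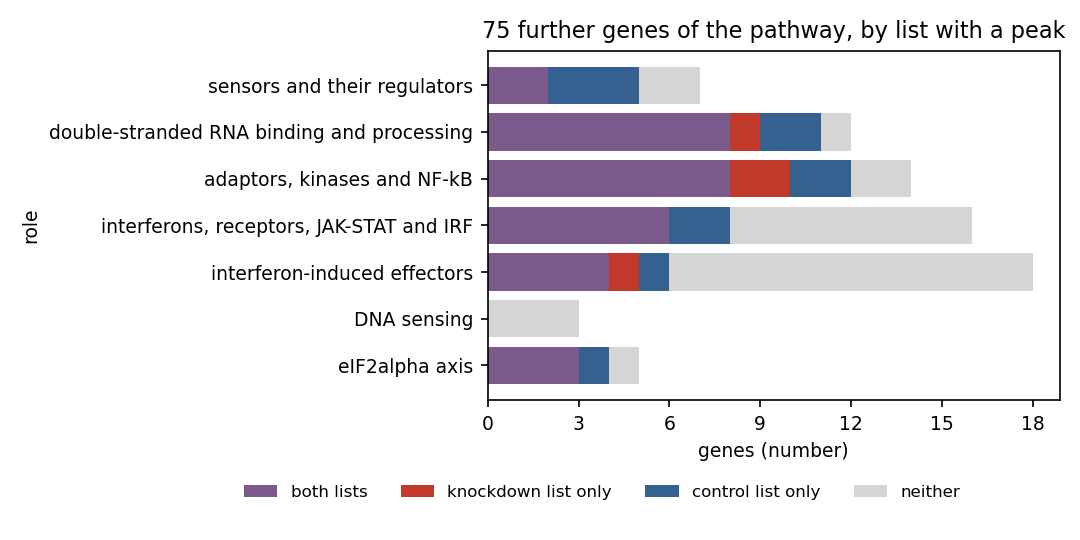
Number of genes (horizontal axis) among 75 further genes of the pathway, by role (vertical axis), with a peak in both lists (purple), the knockdown list only (red), the control list only (blue) or neither (grey). Of 12 genes that bind or process double-stranded RNA 8 have peaks in both lists, and of 18 interferon-induced effectors 12 have none.

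As a check of the cell type, 8 of 9 genes that mark cholangiocytes and biliary tumours had a peak in both lists, against 34.7% of protein-coding genes. KRT7, KRT19 and SOX9 were among them, and EPCAM had none. Of 13 genes that mark leukocytes, 4 had a peak in both lists, namely LYZ, CD68, PTPRC and IL3RA, and the T and B cell markers had none. The leukocyte count was near the share of 34.7%, so it does not help to tell the cell type. Of 4 fibroblast markers, COL1A1 had a knockdown peak and COL1A2 a control peak. NAT10 level was not measured in these lists, so the arm labels could not be checked by it.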

How the data were processed

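Libraries of ac4C immunoprecipitates and inputs from RBE cells were sequenced by the authors, and the submitters' processing notes name fastp 0.20.1, Bowtie2 2.4.1 and hg38. The sources used here do not state how peaks were called, at which threshold, against which input or over which replicates. The deposited files hold 1 peak list per arm, with a score per peak of unstated scale. Only the control list's name matches its arm's titles alone, so the other list was taken as the knockdown list.

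Starts were converted to 1-based positions. Peaks were assigned to RefSeq gene spans (GRCh38.p14, same coordinates as hg38) by an overlap of 1 bp or more on either strand. Strand came from the promoter table. Exons and genome sequence were not used here, so no peak sequence is shown. Lists were compared by same-strand overlap of 1 bp or more, in Python 3.11.15 with NumPy 2.4.6 and pandas 2.3.3, and figures drawn with matplotlib 3.10.9. The overlap procedure was tested on simulated data. Depth is unknown, so no floor is given, and the 95% Wilson intervals cover counting error only.

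All 9 members are named. Of the further genes, the rule names up to 4 with the highest score in the knockdown list only, up to 4 in the control list only, and up to 4 with most peaks in both, of which 1 is not reported here. Scores for this ranking came from peaks that overlap no other gene, and genes without such a peak were left out. The members and lists were chosen with earlier results of these data known, and the grouping of the 75 genes by role followed after their values were seen. Alternatives covered score, list length, width, gene overlap, strand and merging. No source states if the upstream steps kept strand, so overlapping genes are uncertain.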

Additional observations from a re-analysis of the deposited data

How the results depend on the processing

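With scores of 15 or more, member genes with a peak numbered 3 in the knockdown and 4 in the control list, peaks on them 3 and 4, and control genes of the wider list 20 in place of 42. The remaining 53 of 58 list values stayed within 1.5 times the reported count or inside the interval of the reported share, and so did 104 of 126 counts on single genes, with 22 outside. Both tallies include values that could not move, such as counts that were already 0. Lists of equal length left the knockdown counts as they were, and the limit of 1000 bp was already part of the reported position share. STAT2 and DDX60 had no knockdown peak under any setting, but the settings only remove or join peaks, so a count of 0 could not change. Neither gene had a control peak at scores of 15 or more. The higher knockdown count became equal for MAVS with peaks merged and at scores of 15 or more, with 1 peak in each list. With peaks up to 1000 bp MAVS had 0 peaks in both lists, so nothing was left to compare. The same held for IRF3 with peaks in 1 gene and at 15 or more. On the plus strand alone, which held most of its peaks and is that of BCL2L12, IRF3 had 1 peak in each list. The minus strand had 1 knockdown and 0 control peaks. For DICER1 the higher knockdown count became equal at 15 or more. The lower count became equal for ADAR at 15 or more. EIF2AK2 had 1 peak in both lists when peaks in other genes were left out. With lists of equal length, IRF3 lost its control peak and DDX60 kept 1. Leaving out IRF3 for peak position, a setting added after seeing the data, gave 63.6% of knockdown and 53.8% of control peaks in the last 20% of the span. No paired analysis was possible because the lists do not separate replicates, and for the same reason no replicate could be left out.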
